A study of Mus with 8 samples.

Results

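The MS4A family consists of small proteins that cross the membrane several times, and 8 of its genes are described here: Ms4a4a, Ms4a4b, Ms4a4c, Ms4a4d, Ms4a6b, Ms4a6c, Ms4a6d and Ms4a7. They were taken by exact gene symbol, each had 1 probe set, and they are 8 of the 21154 gene symbols measured. They were chosen by name, with the differences between the groups on these same arrays already known. Their values, their differences and their calls are therefore a description, and no p-value is given for them.

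The best known relatives are Ms4a1, which encodes the B cell antigen CD20, and Ms4a2, which encodes the beta chain of the high-affinity IgE receptor of mast cells. Several other members are found on monocytes and macrophages, where work in mouse or human cells has placed them beside receptors of the innate immune system. MS4A4A has been found together with the beta-glucan receptor Dectin-1 in macrophages, Ms4a6d with the complement receptor Vsig4 in mouse macrophages, and Ms4a4b with the costimulatory receptor GITR in mouse T cells.

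RAW264 is a macrophage-like line derived from a BALB/c mouse and transformed by Abelson leukemia virus. Treated cells received BTEE, an ethanol extract of the green microalga Botryococcus terribilis, at 0.2 mg/mL for 24 h, control cells stayed in medium, and both then received 1 ng/mL lipopolysaccharide (LPS) for 6 h or 17 h. The 0.2 mg/mL of these arrays was the highest dose that the study used, and it lies above the doses for which the study states that no significant cytotoxicity was seen. No source used here names an ethanol control, so that the effect of the algal extract and that of its ethanol cannot be told apart in any BTEE difference. RNA of the 4 groups was hybridised to 8 Clariom S mouse arrays, 2 per group, and all groups carried LPS, so no array shows a level before LPS. The cells are 1 established line, and no label says whether both arrays of a group stand for cultures of their own. The SDs and p-values thus measure only the spread between these arrays, which may be technical.

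Values are log2 signals as the authors normalized them with SST-RMA, on which 1 unit is a doubling. Signals of different probe sets were set side by side in percentiles, a cut at a mean signal of 6, array medians and marker sums. These are a rough guide to brightness and not a measure of RNA amount between genes. The array medians lay between 5.25 and 5.28. Across probe sets, r was 0.9984 to 0.9987 within a group, 0.9942 to 0.9948 from BTEE to control at one time, and 0.9755 to 0.9799 from one time to the other. Of 10 macrophage markers, 9 reached a mean signal of 6 (the exception was Mertk), while none of the 8 B cell markers did and the highest group mean among them was 5.48. A gene was called where limma gave an adjusted p under 0.05 (Benjamini-Hochberg over all 21154 symbols). In such bulk RNA, fewer cells that express a gene and less RNA per cell cannot be told apart.

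By the order of their group means, the members fell into 3 kinds of profile over the 4 groups. Ms4a4b, Ms4a4c, Ms4a4d, Ms4a6b and Ms4a6c were highest in control cells at 6 h and lowest with BTEE at 17 h. The lowest step of Ms4a4b (0.04, arrays overlapping) and the highest step of Ms4a4d (0.37) were not called. Ms4a4a and Ms4a6d were lowest with BTEE at 6 h and highest with BTEE at 17 h. Their top step, over control at 17 h, was not called (0.135 with overlapping arrays for Ms4a4a, 0.015 for Ms4a6d). Ms4a7 was the only one of the 8 whose highest group mean was that of BTEE at 6 h. Its step over control at 6 h (0.30) was not called, nor was its lowest step (0.095, arrays overlapping). Neighbouring groups in these orders make 24 pairs, of which 14 were called, 10 were not, and 4 had overlapping arrays. Where control cells of 17 h and BTEE cells of 6 h stood side by side, Ms4a4b, Ms4a4d and Ms4a6b were not called between these groups. Ms4a4c (0.755 higher in control cells of 17 h) and Ms4a6c (0.225 higher in BTEE cells of 6 h) were called. Of all symbols 48.2% were called there, and nothing about the members is read from these calls.

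**Figure D1:**
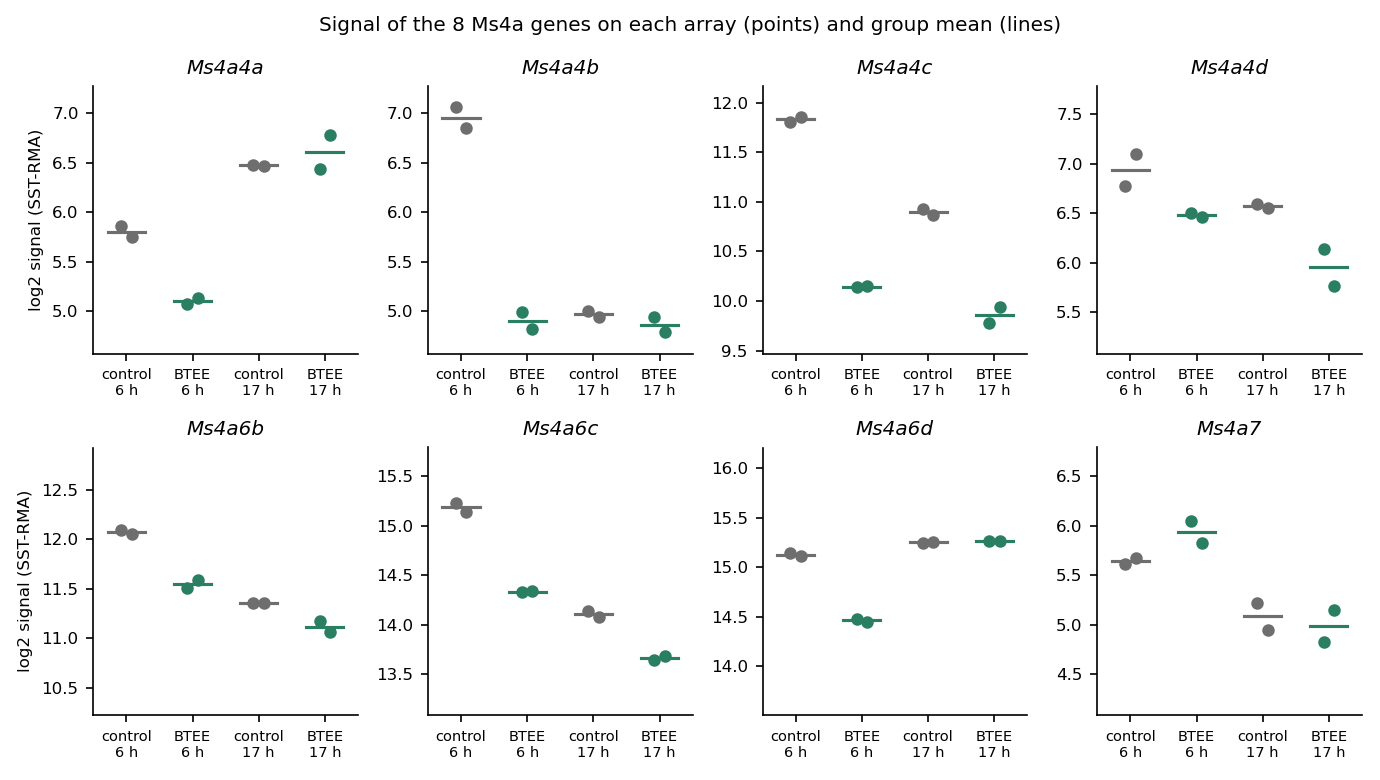
Log2 signal (SST-RMA) of each of the 8 Ms4a genes, with 1 point per array, a line at each group mean of 2 arrays, and a y axis of the same length in every panel. Ms4a4b lay at 6.85 and 7.06 in control cells at 6 h and between 4.79 and 5.00 on the other 6 arrays.

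The first comparison was that of BTEE with control cells after 6 h of LPS. All 8 members had arrays that did not overlap between the groups, 7 of them lower with BTEE (34.5% of all symbols were lower without overlap) and 1, Ms4a7, higher (32.8% of all symbols). Lower calls numbered 6 of 8, beside 15.7% of all symbols, and higher calls 0 of 8, beside 14.5%. Unadjusted p-values of limma were under 0.05 for 7 lower members and 0 higher ones. The median difference of the members was -0.68, and that of all symbols was -0.005. Because the members were chosen with this contrast known, nothing is read from these shares.

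Ms4a4b encodes a protein studied mainly in mouse T cells, where it dampens proliferation. Its log2 signal was 7.06 and 6.85 on the control arrays of 6 h and 4.99 and 4.82 on the BTEE arrays. Both control arrays stood far above both BTEE arrays, and the difference was -2.05 (SE 0.11), which is 4.14-fold lower with BTEE. No other member differed by as much at 6 h. The later arrays of Ms4a4b read 5.00 and 4.94 in control cells and 4.94 and 4.79 with BTEE. Those values overlap with each other, and those of BTEE-treated cells at 6 h lie within the same range. All 6 arrays outside the control group of 6 h lie below the lowest array median of 5.25, and the mean signal of Ms4a4b was at percentile 51.3 of all symbols. Whether they read the gene or background was not tested, and if background, the fold at 6 h would be understated and a BTEE difference at 17 h could not show.

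Ms4a4c is a close relative of Ms4a4b and lies beside it in the genome. Its signal was 11.81 and 11.86 in control cells at 6 h and 10.14 and 10.15 with BTEE. The difference was -1.69 (SE 0.08), a 3.23-fold lower signal with BTEE, and the SDs of the groups were 0.04 and 0.01. At 17 h the control arrays read 10.93 and 10.87 and the BTEE arrays 9.78 and 9.94. The BTEE arrays were again below both control arrays, by 1.04 (SE 0.08) or 2.06-fold. From control at 6 h down through control at 17 h and BTEE at 6 h to BTEE at 17 h, each of the 3 steps was called.

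The 3 Ms4a6 genes, with mean signals at percentiles 86.4 to 97.9 of all symbols, were also lower with BTEE at 6 h. Ms4a6c read 15.23 and 15.14 in control cells and 14.33 and 14.34 with BTEE, a difference of -0.85 (SE 0.07) or 1.80-fold. Ms4a6d, the partner of Vsig4 in mouse macrophages, read 15.15 and 15.11 against 14.48 and 14.45, a difference of -0.67 (SE 0.07) or 1.59-fold. In both genes the gap between the groups was many times the gap between the arrays of a group. Ms4a6b read 12.09 and 12.05 in control cells and 11.51 and 11.59 with BTEE, 1.43-fold lower (difference -0.52, SE 0.07).

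Ms4a4a is the mouse counterpart of the human macrophage protein MS4A4A, which is known as a marker of alternatively activated macrophages. Its control arrays at 6 h read 5.86 and 5.75 and its BTEE arrays 5.07 and 5.14. The difference was -0.70 (SE 0.12), a 1.62-fold lower signal with BTEE, and both BTEE arrays were below both control arrays. Its mean signal was at percentile 55.6 of all symbols, and both BTEE arrays of 6 h lie below the lowest array median of 5.25. Whether these arrays read the gene or background was not tested, and if background, the fold would be understated.

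Ms4a4d and Ms4a7 were not called at 6 h. Ms4a4d read 6.78 and 7.10 in control cells and 6.50 and 6.46 with BTEE, a difference of -0.46 with a 95% interval of -0.80 to -0.12. Its arrays did not overlap, and the control arrays had an SD of 0.23, the widest of any member among control cells at 6 h. Without replicate 1 of the control cells at 6 h the difference was -0.62 and was called, and without either BTEE array of 17 h it was -0.46 and was called. Ms4a7, in human known from monocytes, macrophages and microglia, read 5.61 and 5.67 in control cells and 6.05 and 5.83 with BTEE. Its difference was +0.30 with a 95% interval of -0.03 to 0.63, so a difference of 0 lay inside the interval.

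**Figure D2:**
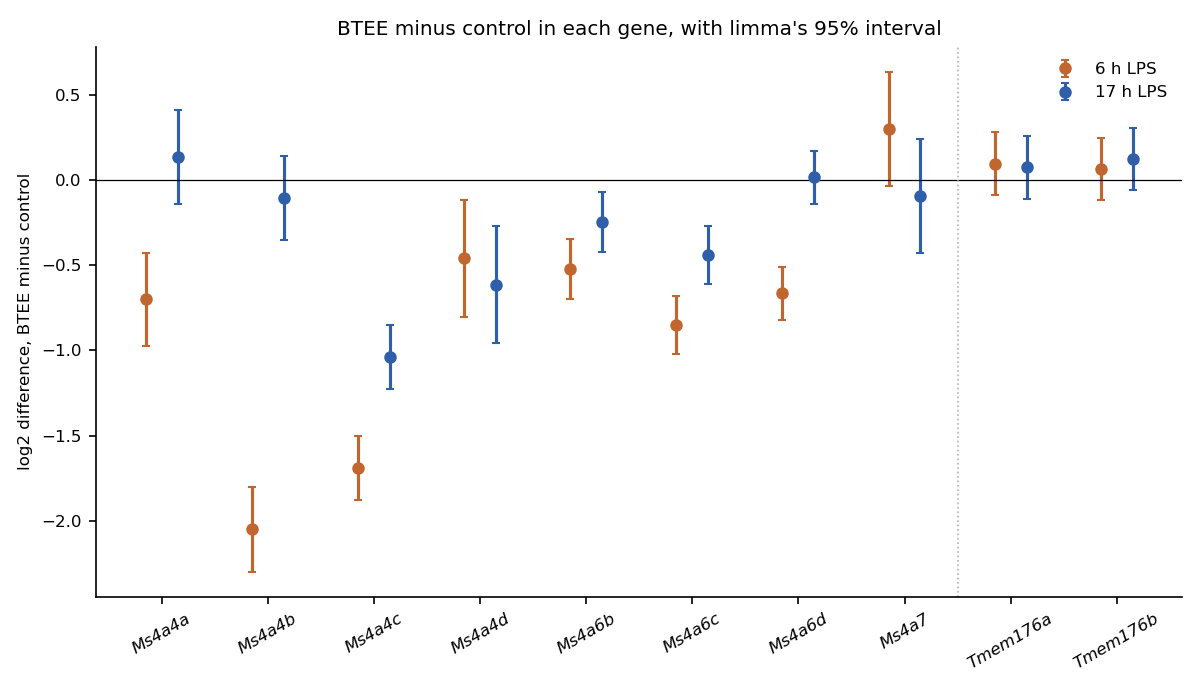
Log2 difference of BTEE minus control (y axis) in each of the 8 Ms4a genes and in Tmem176a and Tmem176b (x axis), with points for 6 h and 17 h of LPS and bars for limma's 95% interval. At 6 h the points run from -2.05 for Ms4a4b to 0.30 for Ms4a7, and at 17 h from -1.04 for Ms4a4c to 0.14 for Ms4a4a among the 8 genes.

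The same comparison after 17 h of LPS gave a smaller set. Lower calls numbered 4 of 8 (Ms4a4c, Ms4a4d, Ms4a6b and Ms4a6c), beside 13.6% of all symbols, and higher calls 0 of 8, beside 14.9%. Unadjusted p-values of limma were under 0.05 for the same number, 4 lower and 0 higher. The arrays of those 4 did not overlap and were lower with BTEE (32.6% of all symbols), those of Ms4a6d did not overlap and were higher (33.9%), and those of the other 3 members overlapped. The median difference was -0.18 against 0.005 for all symbols. Lower calls at both times were made for Ms4a4c, Ms4a6b and Ms4a6c, 3 of the 8, beside 2.58% of all symbols. Nothing is read from these shares either, for the same reason.

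Ms4a4d read 6.59 and 6.55 in control cells at 17 h and 6.14 and 5.77 with BTEE. The BTEE arrays were both lower, with an SD of 0.26, and the difference was -0.62 (SE 0.15) or 1.53-fold. The call was lost without replicate 2 of the BTEE cells at 17 h, where the difference was -0.43, and without either control array of 17 h, where it was -0.60 and -0.64.

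Ms4a6c read 14.14 and 14.08 in control cells at 17 h and 13.65 and 13.69 with BTEE. Its difference was -0.44 (SE 0.07), which is 1.36-fold, against 1.80-fold at 6 h. Ms4a6b read 11.36 on both control arrays and 11.17 and 11.06 with BTEE, a difference of -0.25 (SE 0.07) or 1.19-fold. That call was the least stable of the 4: it was lost in 12 of 17 alternative settings, among them the replicate number as a block (difference -0.25) and the omission of any 1 of the 8 arrays (differences between -0.30 and -0.19).

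The remaining 4 members were not called at 17 h. Ms4a4a read 6.48 and 6.47 in control cells and 6.44 and 6.78 with BTEE, so that 1 BTEE array was below and the other above the control arrays, and the difference was +0.14 with a 95% interval of -0.14 to 0.41. Ms4a6d read 15.25 and 15.26 in control cells and 15.27 on both BTEE arrays, a difference of 0.015 with an interval of -0.14 to 0.17. For Ms4a4b the interval was -0.35 to 0.14, and for Ms4a7 it was -0.43 to 0.24 around a difference of -0.10. Ms4a7 read 5.22 and 4.95 in control cells and 4.83 and 5.15 with BTEE, which overlap. All of these lie below the lowest array median of 5.25, where a BTEE difference may not be measurable.

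Whether the BTEE difference itself changed with time was asked with the difference of the 2 effects, 17 h minus 6 h. A positive value means that the signal with BTEE stood higher, relative to control, at 17 h than at 6 h. Such calls were made for 5 of 8 members, beside 16.7% of all symbols, and negative calls for 0, beside 14.8% (limma's unadjusted p was under 0.05 for 6 positive and 0 negative). The values were 1.95 (SE 0.15) for Ms4a4b, 0.84 (SE 0.16) for Ms4a4a, 0.68 (SE 0.09) for Ms4a6d, 0.65 (SE 0.11) for Ms4a4c and 0.41 (SE 0.10) for Ms4a6c. In all 5 the signal with BTEE was lower at 6 h, and at 17 h it was nearer to that of control cells. For Ms4a4b the value rests on 17 h arrays that all lie below the array medians, where a BTEE difference may not be measurable. Both BTEE arrays of 6 h of Ms4a4a lie below the array medians too. Ms4a6c lost its call without each of 5 arrays in turn (replicate 2 of BTEE and of control at 17 h, both BTEE arrays of 6 h, and replicate 1 of control at 6 h), with values between 0.37 and 0.42.

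Ms4a4d, Ms4a6b and Ms4a7 were not called in that test. The difference of the effects was -0.16 for Ms4a4d, 0.28 with a 95% interval of 0.03 to 0.52 for Ms4a6b, and -0.40 for Ms4a7. A test that misses the threshold does not show that the effect was the same at both times.

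The time course was also followed within control cells, from 6 h to 17 h of LPS. In that comparison 5 members were called lower at 17 h, beside 26.4% of all symbols, and 1 higher, beside 25.8%. The arrays of 6 members were lower without overlap (37.5% of all symbols) and those of 2 were higher without overlap (38%). The median difference was -0.63 against 0.005 for all symbols. These groups share arrays with the BTEE comparisons, so the differences are given side by side and are not set against each other.

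Ms4a4b was 3.96-fold lower in control cells at 17 h than at 6 h (difference -1.99, SE 0.11) and Ms4a6c 2.11-fold lower (-1.08, SE 0.07). Ms4a4c was 1.91-fold lower (-0.94, SE 0.08), Ms4a6b differed by -0.71 and Ms4a7 by -0.56. Each of these 5 had both arrays of 17 h below both arrays of 6 h. Those 17 h arrays lie below the lowest array median of 5.25 in Ms4a4b and Ms4a7, whose differences may thus be understated. The call of Ms4a7 was lost without replicate 2 of the control cells at 17 h (-0.42) or at 6 h (-0.53). Ms4a4a was the one higher call, at +0.67 (SE 0.12). Ms4a4d, at -0.37, was not called with all 8 arrays and was called without replicate 1 of the control cells at 6 h (-0.53) or either BTEE array of 17 h (-0.37). Ms4a6d, at +0.13, was not called either.

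In BTEE-treated cells the same interval gave 5 lower calls, beside 24% of all symbols, and 2 higher calls, beside 23.6%. The arrays of 5 members were lower without overlap (36.3% of all symbols), those of 2 were higher without overlap (36.4%), and those of Ms4a4b overlapped. The median difference was -0.36 against 0 for all symbols.

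Ms4a4a was 2.84-fold higher at 17 h than at 6 h with BTEE (difference 1.51, SE 0.12), and Ms4a6d was 1.75-fold higher (0.81, SE 0.07). Both had started from the lowest of their 4 group means. Ms4a7 was 1.93-fold lower (-0.95, SE 0.14), Ms4a6c differed by -0.67, Ms4a4d by -0.53, Ms4a6b by -0.44 and Ms4a4c by -0.29. Ms4a4b, at -0.04, was not called. In these cells the 17 h arrays of Ms4a7 and the 6 h arrays of Ms4a4a lie below the lowest array median of 5.25. Their folds may thus be understated, which was not tested. The call of Ms4a4c was lost without replicate 1 of BTEE at 17 h (-0.21) or either BTEE array of 6 h (-0.29 and -0.28). That of Ms4a4d was lost without replicate 2 of BTEE at 17 h (-0.34) or either BTEE array of 6 h (-0.51 and -0.55).

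**Figure D3:**
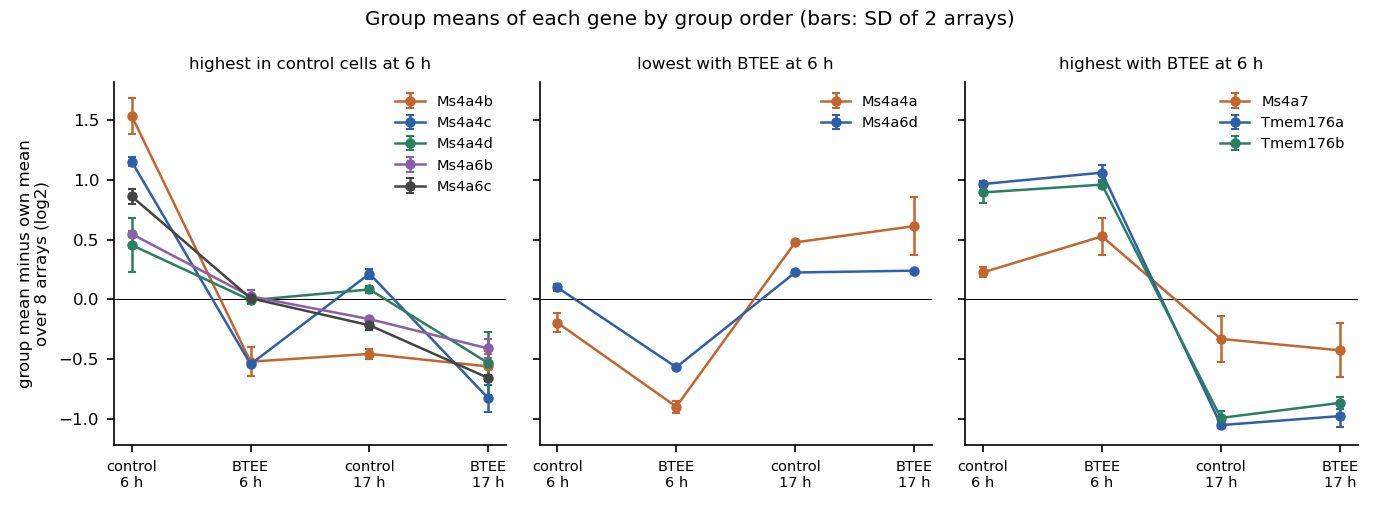
Group mean of each gene minus its own mean over the 8 arrays (y axis, log2) in the 4 groups (x axis), with bars for the SD of 2 arrays, and panels that sort the genes by their highest or lowest group. Ms4a4a and Ms4a6d dip with BTEE at 6 h, where their arrays read 5.07 and 5.14, and 14.48 and 14.45.

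The choice by symbol did not use positions. Genes of related symbol lie together in this family, so the block given below is a description and not a separate result. In the RefSeq annotation of GRCm38.p6, 21 Ms4a genes lie on chromosome 19 between 10962289 and 11640851, a stretch of 679 kb, and 20 of them matched the arrays by current or older symbol. The 8 members are consecutive in it, in a block of 284 kb from 11321039 to 11604804, with 11 Ms4a genes before it and 2 after it. In order of position these are Ms4a7, Ms4a4a, Ms4a4c, Ms4a4b, Ms4a6c, Ms4a6b, Ms4a4d and Ms4a6d. At 6 h the differences of Ms4a4c (chr19:11404717-11427246) and Ms4a4b (chr19:11443558-11463549), which are next to each other, were the furthest from 0. Ms4a7 (chr19:11321039-11336146), at one end of the block, was the member with a positive difference, and Ms4a6d (chr19:11586606-11604804) lies at the other end.

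The Ms4a4 genes and the Ms4a6 genes are each close copies of one another. The probe sequences of the arrays were not used here, so a signal of one copy that includes RNA of another cannot be told apart from its own.

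Gm8369, a gene annotated between Ms4a6c and Ms4a6b (chr19:11488955-11512577), is the one other measured gene inside the block. Its signal was 8.65 and 8.42 in control cells at 6 h and 7.18 and 7.56 with BTEE. The later arrays read 6.07 and 6.27 without BTEE and 5.54 and 6.02 with it. It was lower with BTEE at 6 h by 1.17 on the log2 scale (limma adjusted p = 0.00581), and at 17 h its difference was -0.39 (limma adjusted p = 0.172). AW112010, inside the cluster and before the block, rose at 6 h by 0.89 (limma adjusted p = 0.00459), at a mean signal of 4.11.

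**Figure D4:**
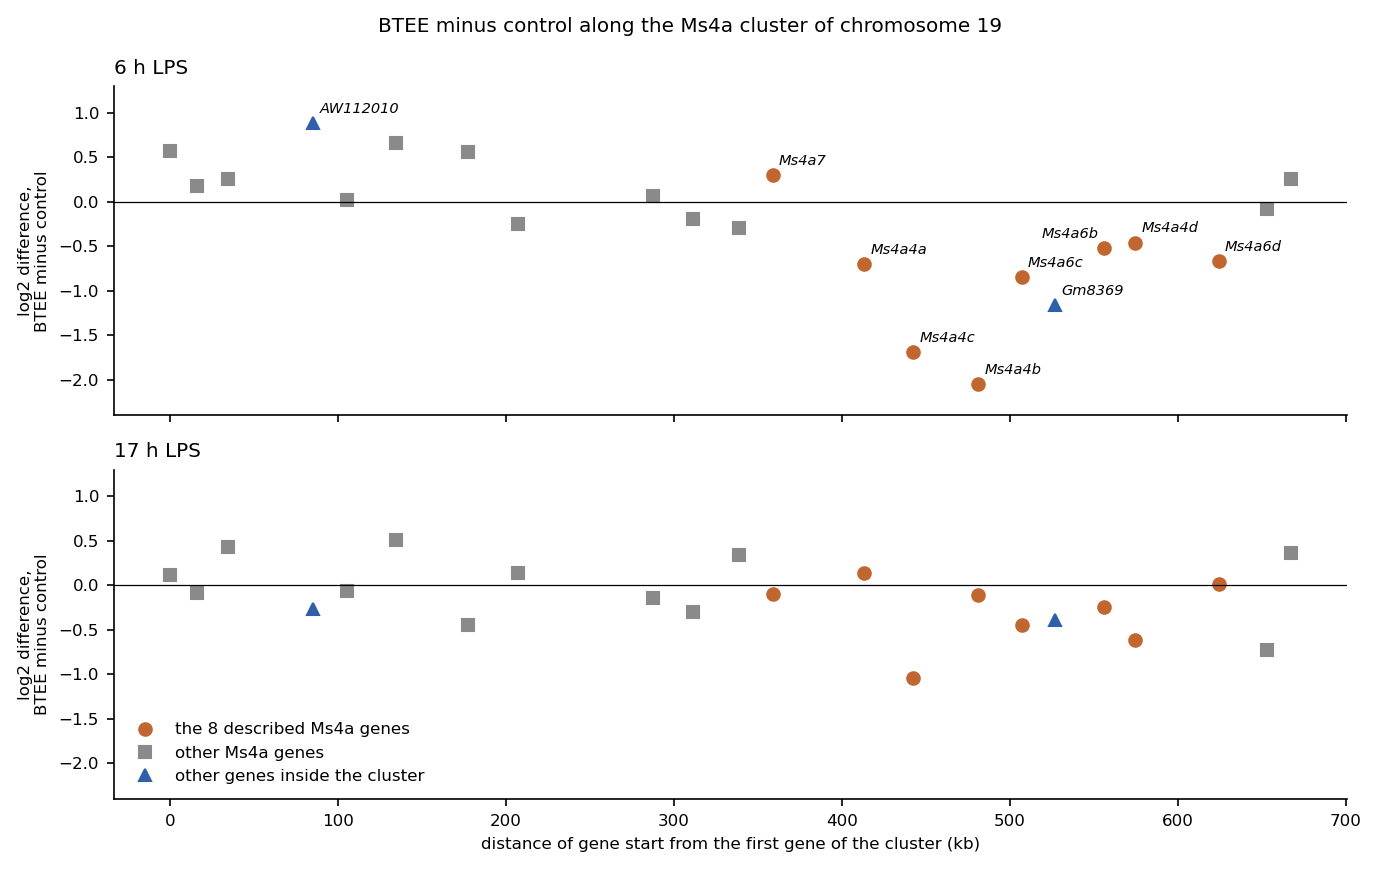
Log2 difference of BTEE minus control (y axis) against the distance of each gene's start from the first gene of the Ms4a cluster (x axis, kb) at 6 h (top) and 17 h (bottom) of LPS, with circles for the 8 described genes, squares for other Ms4a genes and triangles for other genes inside the cluster. At 6 h, 7 of the 8 circles lie below 0, the lowest at -2.05, and at 17 h the lowest is Ms4a4c at -1.04.

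The 10 other Ms4a genes found under their own symbol had a median signal of 3.51 and none reached 6. Ms4a1, which encodes CD20, had a mean signal of 2.83. Of these 10, Ms4a10 rose with BTEE at 6 h by 0.57 (SE 0.13, limma adjusted p = 0.0172) and Ms4a2 fell at 17 h by 0.72 (SE 0.19, limma adjusted p = 0.0306), at mean signals of 3.57 and 4.10. Neither call was stable: with 1 array left out, 0 of the 10 were called at 6 h without replicate 2 of BTEE or of control at 6 h, and 0 at 17 h without replicate 2 of BTEE or replicate 1 of control at 17 h. From 6 h to 17 h in control cells, Ms4a15 rose by 0.48 (SE 0.11, limma adjusted p = 0.00941) and Ms4a2 by 0.61 (SE 0.19, limma adjusted p = 0.0319). With Tmem176a and Tmem176b, 4 of these 12 relatives were called in that comparison, and 2 without replicate 1 of the control cells at 17 h. Of all symbols, 26.4% were called lower and 25.8% higher there. With BTEE the shares of all symbols were 15.7% lower and 14.5% higher at 6 h, and 13.6% and 14.9% at 17 h. Ms4a20, found under its older symbol at a mean signal of 4.14, rose at both times, by 0.66 (limma adjusted p = 0.0154) and 0.51 (limma adjusted p = 0.0366).

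Tmem176a and Tmem176b encode related membrane proteins that lie elsewhere in the genome. Tmem176a differed with BTEE by 0.10 at 6 h and 0.08 at 17 h (limma adjusted p = 0.393 and 0.506), and Tmem176b by 0.07 and 0.13 (limma adjusted p = 0.558 and 0.267). In control cells both fell from 6 h to 17 h, with differences of -2.01 for Tmem176a (SE 0.08, limma adjusted p = 1.26e-06) and -1.88 for Tmem176b (SE 0.08, limma adjusted p = 1.64e-06). Over these 12 relatives, limma called none for a change of the BTEE effect with time (2 at an unadjusted p under 0.05, both negative). Of all symbols, 16.7% had a positive call and 14.8% a negative one.

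In the cluster and within 500 kb of it, 75 other genes are annotated and 41 were measured, Gm8369 and AW112010 among them, 16 with a mean signal of at least 6. At 6 h, 10 of the 41 were lower with BTEE (Gm8369 included), 4 were higher (AW112010 included) and 27 were not called. The shares of all symbols were 15.7% lower and 14.5% higher. At 17 h the counts were 5, 5 and 31, beside 13.6% of all symbols lower and 14.9% higher. Nothing about the neighbours is read from these counts. The neighbours' median difference at 6 h was -0.055, beside -0.68 for the members. The members were chosen with this contrast known, and their median signal was 8.59 against 4.99 for the neighbours. Nothing is read from the gap between these medians. Called at both times were Tmem138 (+0.46 and +0.57), Tmem216 (-0.38 and +1.12), Prpf19 (-0.44 and +0.72) and the olfactory receptor genes Olfr1419 (-0.45 and -0.52) and Olfr1420 (-0.47 and -0.51). The mean signals of Olfr1419 and Olfr1420 were 3.86 and 3.85, below the lowest array median of 5.25.

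A further list held 10 genes whose proteins are known to work with MS4A proteins or next to them. With BTEE at 6 h, 4 were lower and 2 higher (median -0.07), beside 15.7% and 14.5% of all symbols. Clec7a, which encodes Dectin-1, fell from a mean of 13.43 to 12.31 at 6 h (difference -1.12, SE 0.07, limma adjusted p = 6.01e-04) and from 12.93 to 12.15 at 17 h (-0.78, SE 0.07, limma adjusted p = 0.00123). Card9, an adaptor below Dectin-1, rose at 6 h by 1.13 (limma adjusted p = 8.47e-04) and differed by -0.06 at 17 h (limma adjusted p = 0.697). Tyrobp, the adaptor DAP12, fell at 6 h by 0.71 (limma adjusted p = 0.00115). Tnfrsf18, which encodes GITR, rose at 6 h by 0.54 at a mean signal near 4 (limma adjusted p = 0.0101). At 17 h, 4 of the 10 were lower and 1 was higher (median -0.10), beside 13.6% and 14.9% of all symbols. Kit fell at 17 h by 0.62 at a mean signal of 4.86 (limma adjusted p = 0.0142). Fcer1g, the common gamma chain of Fc receptors, fell by 0.53 (limma adjusted p = 0.00316). Trem2, a lipid receptor that signals through DAP12, rose by 0.66 (limma adjusted p = 0.00272). At 6 h Trem2 had fallen with BTEE by 0.41 (limma adjusted p = 0.0119), and its difference of the effects was 1.06 (SE 0.12, limma adjusted p = 0.00173).

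Some members, Ms4a4c among them, are known to respond to interferon, and 16 interferon-stimulated genes were followed beside them. At 6 h, 10 of the 16 were lower with BTEE and 0 higher (median -0.33), beside 15.7% and 14.5% of all symbols. Limma's unadjusted p was under 0.05 for 13 lower and 1 higher. The list was led by Mx1 at -0.80 (limma adjusted p = 9.97e-04) and Mx2 at -0.57 (limma adjusted p = 0.00212). At 17 h, 12 were lower and 0 higher (12 and 0 at that unadjusted threshold, median -0.36), beside 13.6% and 14.9% of all symbols. Cxcl10 at -1.05 (limma adjusted p = 0.00101) and Ifit3 at -0.68 (limma adjusted p = 0.00163) led them. In control cells all 16 fell from 6 h to 17 h, with a median of -3.62, beside 26.4% of all symbols called lower. Cxcl10 fell by 5.82 and Ifit1 by 5.54 (limma adjusted p = 3.92e-08 for both). Over the same interval the members ranged from -1.99 for Ms4a4b to +0.67 for Ms4a4a.

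Markers of the cell types that use Ms4a genes were read beside the members. Of all symbols, 15.7% were called lower and 14.5% higher with BTEE at 6 h, and 13.6% and 14.9% at 17 h. The summed signal of the 10 macrophage markers, on the log2 scale, was 19.49 to 19.53 in control cells at 6 h and 19.37 to 19.38 with BTEE, and limma called 5 of the 10 lower and 0 higher (unadjusted p under 0.05 for 5 and 0). At 17 h the sums were 19.43 to 19.44 and 19.50 to 19.51, with 1 lower and 1 higher (limma's unadjusted p under 0.05 for 2 and 4). The 8 B cell markers gave sums of 7.07 to 7.09 and 7.06 to 7.18 at 6 h, and limma called 0 of them in either BTEE comparison (unadjusted p under 0.05 for 2 lower and 1 higher at 6 h and for 1 and 1 at 17 h). The 7 measured T and NK cell markers gave 7.93 to 8.03 and 8.10 to 8.13 at 6 h, with 1 higher. Limma's unadjusted p was under 0.05 for 1 lower and 2 higher. At 17 h they gave 8.39 to 8.48 and 8.17 to 8.20, with 1 lower. Cd4, at a mean signal of 7.69, was the only one to reach 6 and made up most of these sums. The higher call was Cd3g, at a mean signal of 2.95, and the lower one was Cd4 itself (-0.33). The 7 mast cell and basophil markers gave 15.26 to 15.38 and 14.53 to 14.57 at 6 h, with 4 lower and 1 higher, and 13.07 on both control arrays and 12.90 to 12.91 with BTEE at 17 h, with 1 lower. Hdc, the histidine decarboxylase gene that macrophages also use, made up nearly all of that sum. It fell with BTEE at 6 h from 15.32 to 14.54 (limma adjusted p = 0.00105). The other called markers of this list had mean signals below the lowest array median of 5.25. At 6 h these were Tpsb2 (4.49), Mcpt4 (3.99) and Fcer1a (3.53), all lower, and Cpa3 (4.35), which was higher. At 17 h it was Kit (4.86). The part of these markers in the members' differences was not tested.

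The genes whose pattern was closest to that of a member were searched for the 4 members whose group means spanned at least 1 log2 unit. Likeness was the root mean square difference over the 8 arrays after each gene was centred on its own mean, among 9386 or 9387 symbols with a mean signal of at least 6. For Ms4a4c the closest were Tnfsf15 (0.19), Ifi27l2a (0.24), Axl (0.26), Ccr3 (0.26) and Clec7a (0.27). For Ms4a4b they were Adap2 (0.17), Kat2b (0.25), Ccr3 (0.28), Pydc3 (0.32) and Lbr (0.33). Ccr3, the eotaxin receptor, thus stood in both lists. Clec7a was near Ms4a4c, whereas the partner named above for its product Dectin-1 is MS4A4A. Clec7a was not among the 5 genes closest to Ms4a4a.

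For Ms4a6c the closest were Evl (0.07), Cdkl3 (0.07), Selplg (0.10), Sec24b (0.10) and E130116L18Rik (0.11). For Ms4a4a they were Fbxo42 (0.11), P2rx4 (0.12), Sbno1 (0.12), Dhx36 (0.13) and Bri3 (0.13). No gene was shared between these 2 lists or with the lists of Ms4a4b and Ms4a4c. The 8 arrays fall into groups, so this likeness mainly restates the order of the group means and carries no test.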

How the data were processed

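The 8 Clariom S mouse arrays held RNA of RAW264 cells in 4 groups of 2, as the sample labels give them. The authors processed the arrays with SST-RMA in the Transcriptome Analysis Console and deposited 1 log2 signal per probe set and array, for 22206 probe sets. They also deposited group averages, fold changes, p-values and FDR for each time; only the averages were checked against the log2 signals (largest gap 0.005), and the rest was not used. Array signals flatten near background and at saturation, so that differences of very dim or very bright probe sets can be understated. Raw intensities were not used here.

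The deposited signals were used without a filter. Leaving out 836 probe sets annotated with more than 1 symbol and 3 with no symbol gave 21367 probe sets and, by the brightest mean, 21154 symbols. The model, fitted by limma 3.58.1 (R 4.3.3), had a mean for each group and left 4 residual degrees of freedom, to which moderation added 3.12. P-values were adjusted over all symbols by Benjamini and Hochberg's method, SEs are limma's moderated ones, and the fit was tested on simulated data. The number of arrays limits the precision. Same-numbered arrays were not paired in the model.

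Members, lists, tests and the rule for named genes were chosen with earlier results of these data known. Named were all members, the other Ms4a genes and Tmem176a and Tmem176b with a call, neighbours within 500 kb called in both BTEE comparisons, up to 4 called genes with the largest change in lists of partners, interferon-stimulated genes and regulators, and the 5 genes most like each member that spanned at least 1 log2 unit. Gm8369, AW112010, Card9 at 17 h and the lead markers were added after their values were seen. A regulator that the rule would name is not reported here. Positions are from RefSeq's GRCm38.p6, the build of the arrays' annotation. Alternatives were quantile normalization on top, median centring, a mean signal of at least 6, the 4 arrays of a comparison alone, the replicate number as a block, limma without moderation or with a trended and robust prior, averages over probe sets that share a symbol, the study's thresholds (a fold over 1.5 at an unadjusted p under 0.05), and each array left out in turn.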

Additional observations from a re-analysis of the deposited data

Results flagged for a closer look

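The BTEE effect differed between 6 h and 17 h of LPS, by limma's test of the difference itself, in 5 of the 8 members, beside 16.7% of all symbols with a call in the same direction. The difference of the effects, 17 h minus 6 h on the log2 scale, was 1.95 for Ms4a4b, 0.84 for Ms4a4a, 0.68 for Ms4a6d, 0.65 for Ms4a4c and 0.41 for Ms4a6c. The members were chosen with this contrast known, so the values are a description. For Ms4a4b all 4 arrays of 17 h lie below the lowest array median of 5.25, where a BTEE difference may not be measurable. Both BTEE arrays of 6 h of Ms4a4a lie below that median too. At 17 h Ms4a4c and Ms4a6c were still called lower with BTEE, while Ms4a4a, Ms4a4b and Ms4a6d were not called. Groups of 2 arrays were not searched for outlying arrays.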

How the results depend on the processing

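Each member was recomputed in 5 comparisons under the alternatives. Of 657 such values, 595 kept their sign and call, 39 lost the call, 16 gained it and 7 changed sign, and 23 of the 40 pairs of member and comparison kept both throughout. Of the 6 lower calls at 6 h, that of Ms4a6b was lost in 1 of 17 alternatives, and the others were kept in each alternative that held the gene. Ms4a4d gained a lower call in 6 of 17. A mean signal of at least 6 left out Ms4a4a and Ms4a4b, so their calls could not be made there. At 17 h the lower count of 4 became 2 at an unadjusted p under 0.05 with a fold over 1.5, and it ranged from 2 to 4 when 1 array was left out, with 2 without replicate 2 of BTEE or either control array of 17 h. In control cells over time, the higher count of 1 became 2 with quantile normalization, with the trended and robust prior and without moderation, and 0 where a mean signal of at least 6 was asked for, which left 5 members. With BTEE over time, the lower count of 5 became 2 at an unadjusted p under 0.05 with a fold over 1.5, and 3 to 5 with 1 array left out (3 without either BTEE array of 6 h), and the higher count of 2 became 1 with a mean signal of at least 6.

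The sign changed only in uncalled differences, each time with 1 array left out. Over the omissions these ranged from -0.035 to 0.305 for Ms4a4a and from -0.255 to 0.065 for Ms4a7 with BTEE at 17 h, from -0.125 to 0.045 for Ms4a4b with BTEE over time, and from -0.34 to 0.03 for Ms4a4d in the difference of the effects. Same-numbered arrays deviated together over all symbols with correlations between -0.001 and 0.02, so no pairing by number was seen. Such correlations can miss a shared culture or batch, and the labels do not say whether the numbers mark pairs. With the replicate block, the members called lower were 6 at 6 h and 3 at 17 h, where Ms4a6b (-0.245) lost its call. Another scaling moved the median of all symbols by at most 0.03.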

Other observations

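Of 19 regulators of macrophage and interferon genes, 6 were lower and 2 higher with BTEE at 6 h (median -0.12). The shares of all symbols were 15.7% and 14.5%. At 17 h, 9 were lower and 1 higher (median -0.29), beside 13.6% and 14.9% of all symbols. Maf, a transcription factor of macrophages, fell at 6 h from a mean of 5.97 to 4.02 (difference -1.95, SE 0.11, limma adjusted p = 6.01e-04) and at 17 h by 0.59 (limma adjusted p = 0.0101). Its mean signal was 4.50, below the lowest array median of 5.25. Irf8 rose at 6 h by 0.40 (limma adjusted p = 0.00765) and fell at 17 h by 0.64 (limma adjusted p = 0.00196). Irf7 fell at 6 h by 0.55 and Irf1 by 0.50 (limma adjusted p = 0.00246 and 0.0125), and at 17 h Stat2 fell by 0.61 and Myd88 by 0.51 (limma adjusted p = 0.00225 and 0.0158). The part of these factors in the Ms4a values was not tested.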
